A study of Homo sapiens with 12 samples.

Results

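The 10 genes described here are targets of the transcription factor p53: CDKN1A, GADD45A, BTG2, MDM2, SESN1, SESN2, GDF15, TP53I3, TP53INP1 and AEN. Their probes were taken by the gene symbol in the platform annotation, which gave 15 of the 47323 probes of an Illumina bead array. The annotation used here lists no probe for BTG2, so BTG2 was not analysed here. Of the 15 probes, 13 were detected on at least 2 arrays, and 9 genes were tested among 11423.

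Messenger RNA was measured on 12 arrays, 2 for each of 6 groups of cultured human glioblastoma cells from the established lines DBTRG and U87. DBTRG cells were untreated or received 10 µM Y15 for 24 h. U87 cells were untreated or received Y15, temozolomide (TMZ) or both for 24 h. Y15 inhibits focal adhesion kinase, which relays signals from the sites where cells hold on to their surroundings. TMZ adds methyl groups to DNA and is the standard drug for this tumour. Its dose is 20 µM in the sample titles but 100 µM in the series' design text, and the sources used here do not settle which was used. DBTRG has no TMZ group. The extraction protocol speaks of frozen tissue although every sample is labelled as a cell line. No vehicle is named for the untreated cells. The labels do not say that the 2 arrays of a group came from separate cultures, so the spread behind every p-value may be technical only.

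p53 is kept low in unstressed cells because MDM2, itself a p53 target, marks it for degradation. DNA damage lifts that brake, and p53 then switches on genes that halt the cell cycle, repair DNA, limit growth or lead to cell death. Several of these genes are also known to answer to other stress factors: GDF15, SESN2 and GADD45A can be induced through ATF4, the main effector of the integrated stress response. U87 is widely used as a glioblastoma line with wild-type p53.

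The 250 bases before the start sites of 8 of the 10 members were matched in the RefSeq promoter table (GRCh38.p14), as 13 windows. They were searched on both strands for the p53 half-site and for 2 half-sites joined by a short spacer, the p53 response element. The other motifs were TGATGCAA (the ATF4 amino acid response element) and its first letters TGATG alone, the AP-1 site TGACTCA, the GC box GGGCGG and the TATA box TATAAA. The full element was found in 0 of the 13 windows and in 0.0256% of all 35116 windows in the table. At so low a share, 0 of 13 does not set these windows apart. Elements farther upstream or within the genes were not searched. A half-site lay in 2 of the 13 windows, 1 each of SESN1 and AEN, against 5.57% of all windows. A looser form with 2 adjacent half-sites and 1 mismatch allowed in each, added after the values had been seen, lay in 2 overlapping MDM2 windows, against 0.339% of all windows. The windows with these matches are shown for MDM2 (chr12:68808767-68809016, plus strand), SESN1 (chr6:109008989-109009238, minus strand) and AEN (chr15:88621090-88621339, plus strand). GDF15 (chr19:18385908-18386157, plus strand), which had the largest change of the 9 genes with Y15 in U87, is shown for its TATAAA, a motif of 10.7% of all windows. Each is written 5′ to 3′ on the strand of the gene. Capitals mark the looser element and, before it, TGACTCA in MDM2, the half-site in SESN1 and AEN, and TATAAA in GDF15.
MDM2: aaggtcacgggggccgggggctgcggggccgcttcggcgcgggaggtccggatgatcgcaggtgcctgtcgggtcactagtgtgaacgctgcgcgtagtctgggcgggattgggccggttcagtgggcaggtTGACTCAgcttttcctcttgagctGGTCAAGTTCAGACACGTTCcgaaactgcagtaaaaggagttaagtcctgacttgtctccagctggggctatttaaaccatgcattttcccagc
SESN1: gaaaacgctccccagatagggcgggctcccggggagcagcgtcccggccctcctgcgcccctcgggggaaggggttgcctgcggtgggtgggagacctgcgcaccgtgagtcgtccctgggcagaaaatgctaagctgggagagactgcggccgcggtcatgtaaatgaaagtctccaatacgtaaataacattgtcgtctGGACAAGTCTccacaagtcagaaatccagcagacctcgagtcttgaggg
AEN: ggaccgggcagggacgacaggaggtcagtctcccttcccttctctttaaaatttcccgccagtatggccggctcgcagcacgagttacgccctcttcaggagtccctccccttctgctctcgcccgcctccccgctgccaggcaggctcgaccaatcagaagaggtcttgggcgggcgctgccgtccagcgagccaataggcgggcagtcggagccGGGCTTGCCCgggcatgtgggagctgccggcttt
GDF15: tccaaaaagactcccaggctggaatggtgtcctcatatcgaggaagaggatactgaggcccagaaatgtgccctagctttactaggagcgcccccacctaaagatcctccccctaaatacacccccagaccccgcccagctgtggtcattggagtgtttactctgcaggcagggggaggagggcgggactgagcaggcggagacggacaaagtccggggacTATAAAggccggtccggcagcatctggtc
TGACTCA lay in 2 of the 13 windows (4.2% of all windows), and TGATGCAA in 0 (0.772%). Both windows with TGACTCA are overlapping windows of MDM2 that hold the same site. TGATG was in 2 windows (28.8%), again overlapping windows of MDM2 with the same site, and GGGCGG in 11 (42.6%). A match describes the letters of these windows and does not show a site of binding.

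Between 14437 and 16889 probes were detected per array, and among the U87 arrays the 2 with Y15 alone had the fewest (14437 and 15169). The number of arrays limits the precision, and signal over background limits the dim probes. Replicates correlated across the 11423 genes tested at Pearson's r between 0.986 and 0.994. Of the marker genes of the cell type, VIM, NES and CD44 were detected on all 12 arrays, SOX2 on 6, and GFAP and S100B, which define astroglia, on 0. Of 13 markers of leukocytes, endothelium, epithelium and neurons, 7 were detected on 0 arrays, while CD68 and SNAP25 were detected on all 12. The others were detected on some arrays: CSF1R on 8, AIF1 on 6, PECAM1 on 5 and EPCAM on 4. Levels are log2 normalized intensities, and changes are differences of group means on that scale ± SE from a limma fit to all 12 arrays. A gene is called higher or lower where its limma p, adjusted by Benjamini-Hochberg over the 11423 genes, is under 0.05. In RNA of whole cultures, a change within cells and a change in the share of cells cannot be told apart. Fold changes understate the change of dim probes, because an offset was added before the log.

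TMZ alone raised CDKN1A in U87 and no other gene of the 11423 passed the test. CDKN1A encodes p21, the cyclin-dependent kinase inhibitor that stops the cell cycle after DNA damage. Its level was 11.32 and 11.30 on the untreated arrays and 12.23 on both arrays with TMZ. Both TMZ arrays lay above both untreated arrays, with a gap far wider than the spread within either group. The change was 0.93 ± 0.10 (1.90-fold, 95% confidence interval 0.70 to 1.15, limma adjusted p = 0.0286), the largest increase among all genes tested. Thus 1 of 9 members was called, and 0.00875% of all genes.

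The call of CDKN1A depends on the setting. Over 16 alternatives the change lay between 0.87 and 0.94, but 10 of them gave an adjusted p above 0.05. These included the removal of any 1 of the 4 arrays compared (0.523 to 0.632).

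The other 8 members did not pass the test with TMZ alone, with an adjusted p of 0.9997 each. SESN1, a sestrin that restrains growth signalling through mTORC1, read 6.67 and 6.86 untreated and 7.18 and 7.28 with TMZ, a difference of 0.46 (interval 0.20 to 0.72). AEN, a nuclease that promotes apoptosis, read 9.21 and 9.14 untreated and 9.70 and 9.51 with TMZ, a difference of 0.43 (0.16 to 0.70). GDF15, a secreted stress cytokine of the TGF-beta superfamily, read 8.37 and 8.38 untreated and 8.62 and 8.82 with TMZ, a difference of 0.34 (0.08 to 0.60). In these 3 genes, on the probe used, both TMZ arrays were above both untreated arrays, and the unadjusted interval lay above 0. The second AEN probe, in the fit over all kept probes, differed by 0.24, with an interval that spans 0 (-0.08 to 0.56). TP53INP1, a stress protein of autophagy and apoptosis, differed by 0.25 (-0.20 to 0.70), and TP53I3, an oxidoreductase linked to reactive oxygen, by 0.19 (-0.31 to 0.69).

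MDM2, the ubiquitin ligase of the p53 feedback loop, read 5.63 and 6.02 untreated and 6.19 and 5.63 with TMZ. These arrays overlapped, and the difference was 0.08 (interval -0.43 to 0.59), so the data leave room for a rise of up to 0.59 or a fall. SESN2, the stress-inducible sestrin, differed by 0.03 (-0.52 to 0.58), and GADD45A, a growth-arrest gene induced by DNA damage, by -0.11 (-0.39 to 0.17), also with overlapping arrays. Across the 9 members, 8 differences were positive, against 50.3% of all genes, and both TMZ arrays were above both untreated arrays in 6, against 18% of all genes. The median difference of the members was 0.25, beside 0.00 for all genes.

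**Figure D1:**
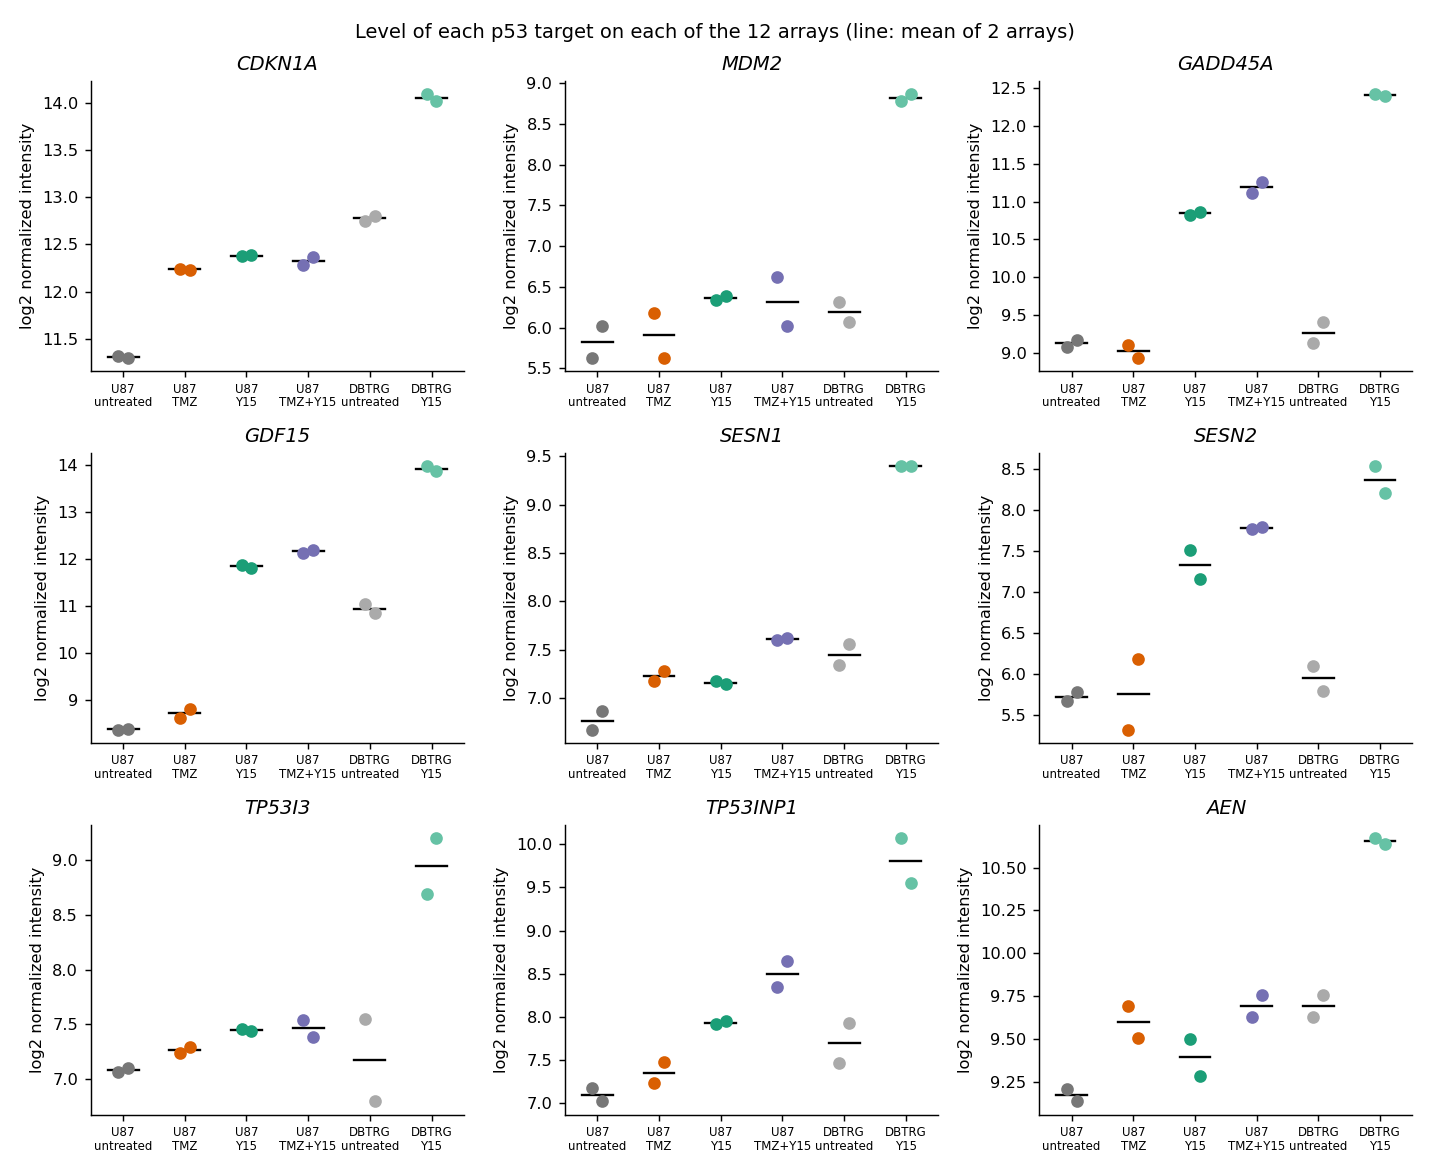
Log2 normalized intensity of the 9 p53 targets (1 panel each) on each of the 12 arrays, by group; points are arrays and the line is the mean of 2. In CDKN1A the 3 treated U87 groups lie within 12.23 to 12.39, above untreated U87 at 11.32 and 11.30, while MDM2 separates clearly in DBTRG with Y15 (8.78 and 8.86).

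Y15 alone raised 6 of the 9 members in U87 and lowered 0, where 8.6% of all genes were called higher and 21.9% were called in either direction. The growth-arrest genes CDKN1A and GADD45A rose. CDKN1A read 12.38 and 12.39 with Y15, a change of 1.07 ± 0.10 (2.10-fold, limma adjusted p = 7.78e-05). GADD45A read 9.08 and 9.18 untreated and 10.83 and 10.86 with Y15, a change of 1.71 ± 0.13 (3.28-fold, adjusted p = 2.45e-05).

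GDF15 had the largest rise of the 9, from 8.37 and 8.38 to 11.88 and 11.82 with Y15. That is a change of 3.47 ± 0.12 (11.1-fold, limma adjusted p = 2.9e-07). SESN2 rose from 5.66 and 5.78 to 7.51 and 7.15, by 1.61 ± 0.25 (3.06-fold, adjusted p = 0.00157). Neither gene's Y15 arrays came near the untreated ones. TP53INP1 rose from 7.18 and 7.02 to 7.92 and 7.95, by 0.83 ± 0.20 (adjusted p = 0.0162), and SESN1 to 7.17 and 7.15, by 0.39 ± 0.12 (adjusted p = 0.0378). The calls of TP53INP1 and SESN1 were lost when any 1 of the 4 arrays compared was left out (adjusted p 0.0560 to 0.105 and 0.0649 to 0.217). When arrays were centred on the median of all probes instead of quantile normalized, the median of all genes moved to -0.60, SESN1 read -0.20 (adjusted p = 0.298) and TP53INP1 0.19 (adjusted p = 0.456). The part of the lower number of probes detected on the arrays with Y15 alone, 14437 and 15169 against 16431 and 15981 untreated, was not tested.

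MDM2, TP53I3 and AEN did not pass the test with Y15 in U87. MDM2 read 6.34 and 6.39 with Y15, above both untreated arrays, a difference of 0.54 (interval 0.03 to 1.05, limma adjusted p = 0.123). TP53I3 read 7.06 and 7.10 untreated and 7.45 and 7.44 with Y15, a difference of 0.37 (adjusted p = 0.277). Over 16 alternatives the TP53I3 difference lay between -0.27 and 0.39. It was called in 1 of them, the fit to only the 8 U87 arrays (adjusted p = 0.0278). AEN differed by 0.22 (adjusted p = 0.228) on the probe used, and by -0.46 (adjusted p = 0.0443, called lower) with centring on the median of all probes. Its other probe was called higher, at 0.60 (adjusted p = 0.0188). The direction of AEN with Y15 in U87 is therefore not settled by these arrays.

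With TMZ and Y15 together, 7 of the 9 members were higher than in untreated U87 and 0 were lower, where 9.89% of all genes were called higher and 23% in either direction. GDF15 read 12.14 and 12.19, a change of 3.79 ± 0.12 (13.8-fold, limma adjusted p = 1.19e-07). GADD45A read 11.12 and 11.26 (2.06 ± 0.13, adjusted p = 7.5e-06) and SESN2 7.77 and 7.79 (2.06 ± 0.25, adjusted p = 0.000447), 4.16-fold and 4.17-fold above untreated cells. TP53INP1 read 8.35 and 8.65, a change of 1.40 ± 0.20 (adjusted p = 0.00122). In these 4 genes, and in SESN1 and AEN, both arrays with both agents stood above both with Y15 alone. That was so for 27.4% of all genes, and none of these differences from Y15 alone was called.

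CDKN1A read 12.29 and 12.37 with both agents, a change of 1.02 ± 0.10 against untreated cells (2.03-fold, limma adjusted p = 0.000115). Here the combination lay between the TMZ and the Y15 groups and was not above Y15 alone. SESN1 rose by 0.84 ± 0.12 (adjusted p = 0.000971) and AEN by 0.52 ± 0.12 (adjusted p = 0.0131). The call of AEN was lost without untreated replicate 1 (0.0533), untreated replicate 2 (0.0849) or replicate 2 of the combination (0.0970). MDM2 (0.49, adjusted p = 0.154) and TP53I3 (0.38, adjusted p = 0.254) did not pass the test, and the MDM2 arrays, at 6.62 and 6.01, overlapped the untreated ones. TP53I3 was called in 2 of 16 alternatives, with only the 8 U87 arrays (adjusted p = 0.0226) and with only the arrays compared (0.0443).

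**Figure D2:**
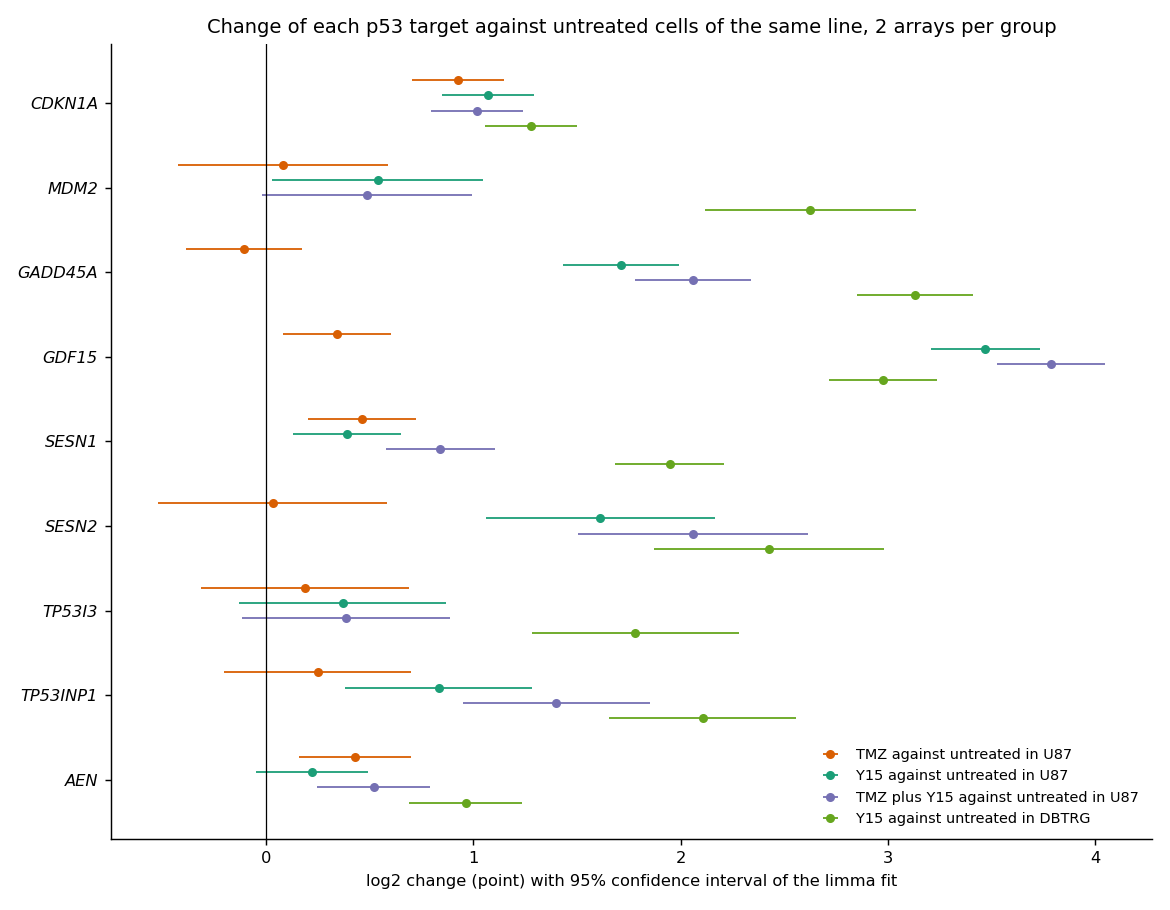
Log2 change of each of the 9 p53 targets against untreated cells of the same line (x axis), with points for the 4 treatments and bars for the 95% confidence interval of the limma fit. TMZ alone departs most in CDKN1A (0.93), Y15 and the combination in GDF15 (3.47 and 3.79 in U87), and Y15 in DBTRG raises all 9 (0.96 to 3.13).

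The comparison of both agents with each agent alone shows what the second one added. When TMZ was added to Y15, 0 of 9 members were called, where 0.298% of all genes were called and 0.0875% were called higher, and 5 had an unadjusted limma p under 0.05, as had 11.3% of all genes. The differences ran from -0.05 in CDKN1A (interval -0.27 to 0.17) and MDM2 (-0.56 to 0.46) to 0.57 in TP53INP1 (0.12 to 1.02, adjusted p = 0.316). SESN1 differed by 0.45, SESN2 by 0.45, GADD45A by 0.35, GDF15 by 0.32 and AEN by 0.30, with adjusted p between 0.143 and 0.552. The second AEN probe differed by only 0.09 (interval -0.23 to 0.41), while those of GADD45A and TP53INP1 differed by 0.36 and 0.62. In 6 members both arrays with TMZ and Y15 were above both with Y15 alone, which was so for 27.4% of all genes. With centring on the median of all probes, which moved the median of all genes to 0.43, those 6 members were called higher, at 0.70 to 1.04, and 3718 of all 11423 genes were called in that setting.

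When Y15 was added to TMZ, 5 of 9 members rose and 0 fell, where 10.9% of all genes were called higher and 25.4% in either direction. GDF15 rose by 3.44 ± 0.12 (limma adjusted p = 3.15e-07), GADD45A by 2.16 ± 0.13 (3.86e-06), SESN2 by 2.03 ± 0.25 (0.00042), TP53INP1 by 1.15 ± 0.20 (0.00308) and SESN1 by 0.38 ± 0.12 (0.0387). The call of SESN1 was lost without any 1 of the 4 arrays compared (adjusted p 0.0832 to 0.183). CDKN1A differed by 0.09 (interval -0.13 to 0.32, adjusted p = 0.542).

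Whether TMZ acted differently in the presence of Y15 was tested as an interaction, and 0 of 9 members were called (0% of all genes, with 954 genes, 8.35%, at an unadjusted limma p under 0.05). CDKN1A had the largest value of the 9 in size, -0.98 ± 0.14 (interval -1.29 to -0.66, adjusted p = 0.0639). That is a TMZ change of 0.93 without Y15 and of -0.05 with it. The value stayed negative over 20 alternatives (-1.02 to -0.56) and was called in 5 of them, where the adjusted p reached down to 0.00123, and not in the other 15, where it reached up to 0.385. For SESN1 and GDF15 the TMZ differences without and with Y15 were 0.46 and 0.45, and 0.34 and 0.32, with an interaction of -0.01 (interval -0.38 to 0.36) and -0.03 (-0.40 to 0.34). GADD45A had an interaction of 0.45 (0.06 to 0.85, adjusted p = 0.523).

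**Figure D3:**
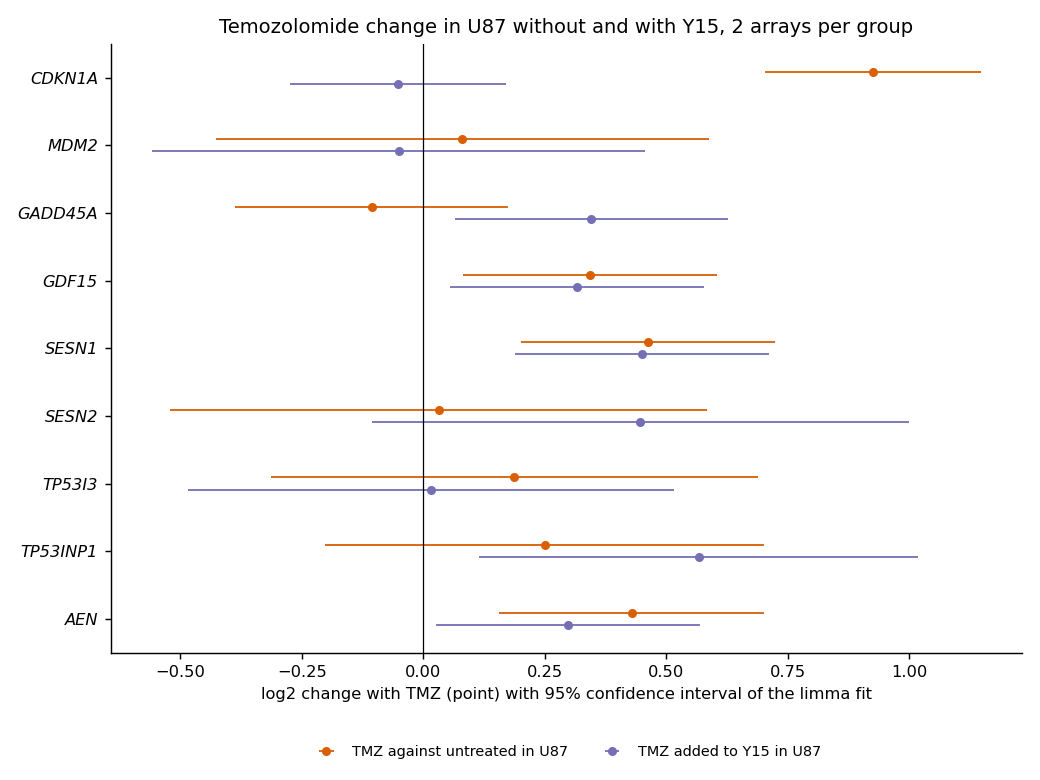
Log2 difference with TMZ in U87 for each of the 9 p53 targets (x axis), without Y15 (orange) and on top of Y15 (purple); bars are 95% confidence intervals of the limma fit, 2 arrays per group. The intervals are apart in CDKN1A (0.70 to 1.15 against -0.27 to 0.17) and overlap in the other 8.

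In DBTRG cells Y15 raised all 9 members tested, where 19.4% of all genes were called higher and 37.8% in either direction. In each of the 9, both Y15 arrays lay above both untreated arrays, against 32.5% of all genes. MDM2 read 6.32 and 6.07 untreated and 8.78 and 8.86 with Y15, a change of 2.63 ± 0.23 (6.17-fold, limma adjusted p = 1.93e-05). GADD45A read 9.13 and 9.41 untreated and 12.42 and 12.39 with Y15, a change of 3.13 ± 0.13 (8.76-fold, adjusted p = 2.03e-07). CDKN1A read 12.75 and 12.81 untreated and 14.09 and 14.02 with Y15, a change of 1.28 ± 0.10 (2.42-fold, adjusted p = 9.81e-06). With Y15 the CDKN1A probe was the brightest and the third brightest of all probes on the 2 arrays, and 14.09 is the highest value that any array holds after quantile normalization.

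GDF15 read 11.05 and 10.85 untreated and 13.98 and 13.87 with Y15, a change of 2.97 ± 0.12 (7.86-fold, limma adjusted p = 2.03e-07). The sestrins rose as well. SESN2 went from 6.10 and 5.79 to 8.54 and 8.21, by 2.43 ± 0.25 (adjusted p = 5.48e-05), and SESN1 from 7.34 and 7.56 to 9.40 on both arrays, by 1.95 ± 0.12 (adjusted p = 2.05e-06). The genes of apoptosis and redox rose by 2.11 ± 0.20 (TP53INP1, adjusted p = 3.75e-05), 1.78 ± 0.23 (TP53I3, 0.000187) and 0.96 ± 0.12 (AEN, 0.000192). TP53I3 varied between the arrays of a group, with 7.54 and 6.79 untreated and 8.69 and 9.21 with Y15, yet the groups did not overlap. The median change of the members was 2.11, beside 0.01 for all genes.

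The Y15 change was larger in DBTRG than in U87 for 6 of the 9 members when the difference between lines was itself tested, where 12.3% of all genes were called in that direction and 19.9% in either. MDM2 differed most, by 2.09 ± 0.32 (2.63 against 0.54, limma adjusted p = 0.00200). SESN1 differed by 1.56 ± 0.17 (0.000329), GADD45A by 1.42 ± 0.18 (0.000691), TP53I3 by 1.41 ± 0.32 (0.0118), TP53INP1 by 1.27 ± 0.29 (0.0118) and AEN by 0.74 ± 0.17 (0.0140). SESN2 differed by 0.81 (interval 0.03 to 1.59, adjusted p = 0.133), and was called in 4 of 19 alternatives. GDF15 was the 1 member with a negative value, -0.50 (-0.87 to -0.13, adjusted p = 0.0611), and it read 0.32 (adjusted p = 0.304) with centring on the median of all probes. Its untreated level was higher in DBTRG. With Y15 in DBTRG the GDF15 probe ranked 6 and 19 from the top of all probes on the 2 arrays. Its values there, 13.98 and 13.87, were close to the highest possible value of 14.09, and the part of this upper limit was not tested. On the probe used, the CDKN1A difference of 0.21 was not called (-0.11 to 0.52, adjusted p = 0.336). In DBTRG with Y15 that probe stood at the highest possible value, 14.09, on replicate 1 and at 14.02 on replicate 2. The part of the upper limit in this CDKN1A value was not tested. The CDKN1A difference between lines was 0.87 (adjusted p = 0.00662) with centring on the median of all probes, which moved the median of all genes to 0.70. The call of AEN was lost without untreated U87 replicate 1 (0.0513) or U87 Y15 replicate 2 (0.0572).

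Without treatment, 5 of the 9 members were higher in DBTRG than in U87 and 0 were lower, where 26.8% of all genes were called higher and 59.3% in either direction. GDF15 was higher by 2.57 ± 0.12 (5.94-fold, limma adjusted p = 1.99e-08) and CDKN1A by 1.47 ± 0.10 (2.77-fold, adjusted p = 4.64e-07). SESN1 was higher by 0.68 (adjusted p = 0.00054), TP53INP1 by 0.60 (0.0259) and AEN by 0.52 (0.00395). Second probes were read in the fit over all kept probes. There AEN differed by 0.28 and was not called (limma adjusted p = 0.126), and TP53INP1 was higher by 1.13 (0.00205). The second GADD45A probe was called higher, at 0.57 (0.00468), against 0.14 on the probe used, which was not called. The call of TP53INP1 was lost without untreated DBTRG replicate 2 (0.37, adjusted p = 0.195), untreated U87 replicate 1 (0.0552) or untreated U87 replicate 2 (0.128). With centring on the median of all probes, which moved the median of all genes to -0.48, 3 members were called in all, of which GADD45A was lower in DBTRG (-0.42, adjusted p = 0.0497), and SESN1 (0.23), TP53INP1 (0.13) and AEN (-0.04) were not called.

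The order of the group means therefore differed between members. For CDKN1A it ran from DBTRG with Y15 through untreated DBTRG, U87 with Y15, with both agents and with TMZ down to untreated U87, and no neighbouring groups overlapped, though the 3 treated U87 groups lay within 12.23 to 12.39. For MDM2 only DBTRG with Y15 stood clear, and the other 5 groups, between 5.63 and 6.62, each overlapped the next. GDF15 was lowest in untreated U87 and in U87 with TMZ, below untreated DBTRG, and each neighbouring pair was apart. For GADD45A and SESN2 untreated DBTRG, untreated U87 and U87 with TMZ overlapped their neighbours.

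Of the members, 4 were measured by a second probe that was kept (CDKN1A, GADD45A, TP53INP1 and AEN), while the second probes of MDM2 and TP53I3 were detected on 0 arrays. Probe values here come from the fit over all kept probes. The probes of GADD45A gave like values with Y15, 3.13 and 3.03 in DBTRG and 1.71 and 1.90 in U87. Those of CDKN1A, which carry the accessions of different transcripts, did not. The dimmer CDKN1A probe read 7.16 and 6.63 in untreated DBTRG and 9.98 and 10.21 with Y15, a change of 3.20 ± 0.23 (limma adjusted p = 9.02e-06), against 1.28 on the bright one. In U87 that probe was not well above background without treatment or with Y15 alone, so it gives no fold there. Its difference between lines, 2.35 ± 0.32 (adjusted p = 0.00160), thus rests in part on values at background.

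With TMZ alone the second CDKN1A probe was detected on 1 of 2 arrays (5.68 and 4.98), and on 0 of 2 untreated arrays (4.62 and 4.67). In the same fit over probes the bright CDKN1A probe, with the same change of 0.93, had an adjusted p of 0.0933. For TP53INP1 the second probe, detected on 1 of 2 untreated U87 arrays, rose by 1.34 ± 0.23 with Y15 in U87 (limma adjusted p = 0.0036) against 0.83 on the first, and by 2.14 against 2.11 in DBTRG. Its difference between lines, 0.80 (adjusted p = 0.129), was not called, nor was that of the second AEN probe, 0.64 (0.0593).

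**Figure D4:**
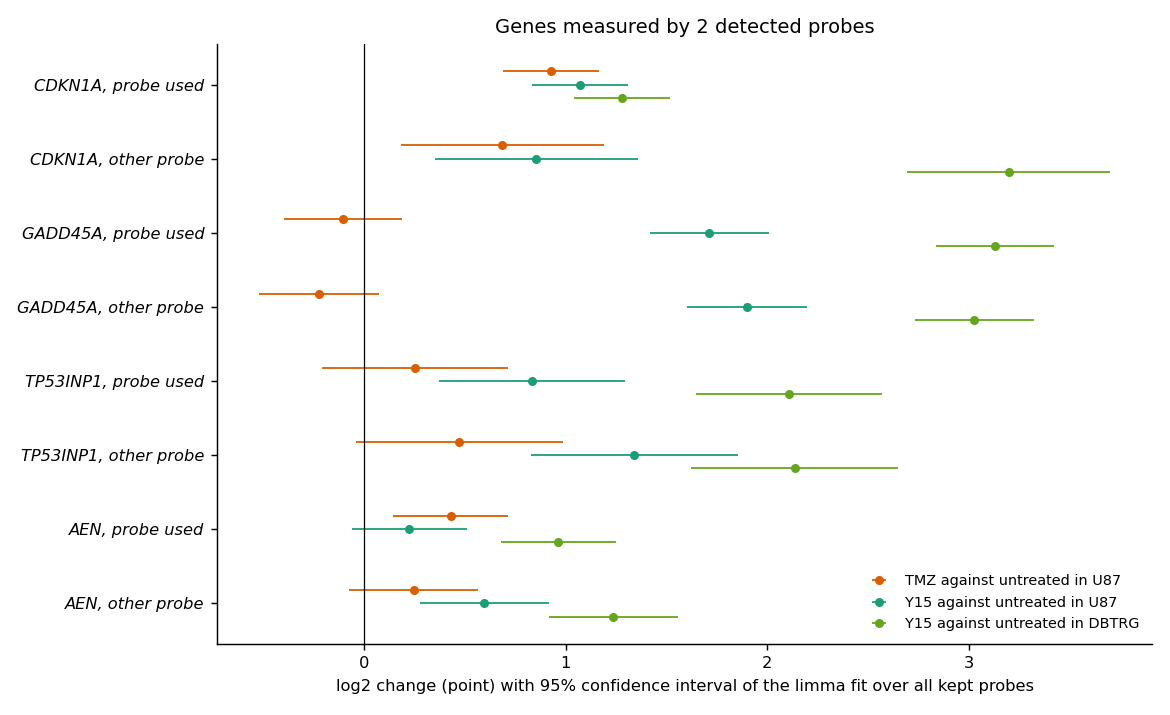
Log2 change (x axis, with 95% confidence interval of the limma fit over all kept probes) for both probes of the 4 genes with 2 kept probes, under 3 treatments. Both probes of GADD45A and of TP53INP1 lie close together with Y15 in DBTRG, while those of CDKN1A lie apart (1.28 and 3.20). The U87 points of the second CDKN1A probe rest on untreated arrays that did not detect it and give no fold.

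Beside these members, 45 other known p53 targets were read as a list, of which 43 were tested. The medians of all genes, for comparison, were 0.00 with TMZ, -0.07 with Y15 in U87, -0.06 with both agents and 0.01 in DBTRG. With TMZ alone 0 of the 43 were called, where 0.00875% of all genes were called. The differences were positive in 35, against 50.3% of all genes, and the median was 0.10. With Y15 in U87, 15 were higher and 1 was lower (median 0.22), where 8.6% of all genes were called higher and 13.4% lower. Those of the list that rose included PMAIP1, which encodes the pro-apoptotic protein NOXA (1.89 ± 0.16), and SERTAD1 (1.02 ± 0.12), while ASCC3 fell by 0.62. The 15 became 5 without Y15 replicate 1, 9 without Y15 replicate 2, 6 without untreated replicate 1 and 7 without untreated replicate 2. With centring on the median of all probes, 1 was higher and 14 were lower, and 7400 of all genes were called. With both agents 15 were higher and 1 lower (median 0.25; 9.89% of all genes higher and 13.1% lower), led by PMAIP1 (2.46 ± 0.16) and including PPM1D, the phosphatase that dampens p53 signalling (1.17 ± 0.19), TNFRSF10B, a death receptor (0.90 ± 0.13), and BAX, a pore-forming apoptosis protein (0.73 ± 0.17). BLOC1S2 (1.34), SUSD6 (1.37), TRIM22 (1.05), SERTAD1 (1.13), TRIAP1 (0.95), PRDM1 (0.92), TIGAR (0.77), RRM2B (0.72), FBXW7 (0.68) and NINJ1 (0.41) also rose, and ASCC3 fell by 0.38. PLK2 was at least 3.01-fold higher, its level with both agents set against the lowest detected signal of the untreated arrays, which did not detect it. In DBTRG, Y15 raised 29 and lowered 0 (median 1.01; 19.4% of all genes higher and 18.4% lower), with SERTAD1 (2.87 ± 0.12), PPM1D (2.81 ± 0.19), FBXW7 (2.49 ± 0.15), BLOC1S2 (2.28 ± 0.14) and PHLDA3 (1.99 ± 0.15) at the smallest p.

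A list of p53 regulators was read too, and it shares PPM1D with the list above. Of its 17 genes tested, TMZ alone called 0, Y15 in U87 raised 2 and lowered 2, and Y15 in DBTRG raised 3 and lowered 6. These counts stand beside 8.6% of all genes called higher and 13.4% lower in U87 with Y15, and 19.4% and 18.4% in DBTRG. With TMZ alone 0.00875% of all genes were called. With Y15 in U87, the higher calls ranged from 0 to 2 over 16 alternatives, and the lower calls from 1 to 15. ATM, the kinase that signals DNA breaks to p53, fell by 1.02 with Y15 in U87 and by 0.84 with both agents. With both agents SIRT1, a deacetylase of p53, rose by 0.79 and CREBBP, an acetyltransferase, by 0.47, while ATR and PML were called lower and were not well above background there. CHEK1 and CHEK2, checkpoint kinases, fell by 1.22 and by 1.20 with Y15 in DBTRG. Of 23 genes of the ATF4 amino acid and integrated stress response, TMZ alone called 0 (median -0.01), Y15 in U87 raised 16 and lowered 0 (0.91), both agents raised 17 and lowered 1 (1.12), and Y15 in DBTRG raised 21 and lowered 1 (2.41). Of all genes, 0.00875%, 8.6%, 9.89% and 19.4% were called higher in these comparisons, in the same order. ATF3 rose by 3.13 ± 0.17 and TRIB3 by 2.84 ± 0.16 with Y15 in U87, and DDIT3, which encodes CHOP, by 3.77 ± 0.15 in DBTRG. When TMZ was added to Y15, where 0.0875% of all genes were called higher, 1 gene of these lists was called higher. It was the cystine transporter SLC7A11 (limma adjusted p = 0.0392). The arrays with Y15 alone did not detect it, so no fold is given, and the count of called genes in its list was 0 when any 1 of the 4 arrays compared was left out. The part of this response in the changes of GDF15, SESN2 and GADD45A was not tested.

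**Figure D5:**
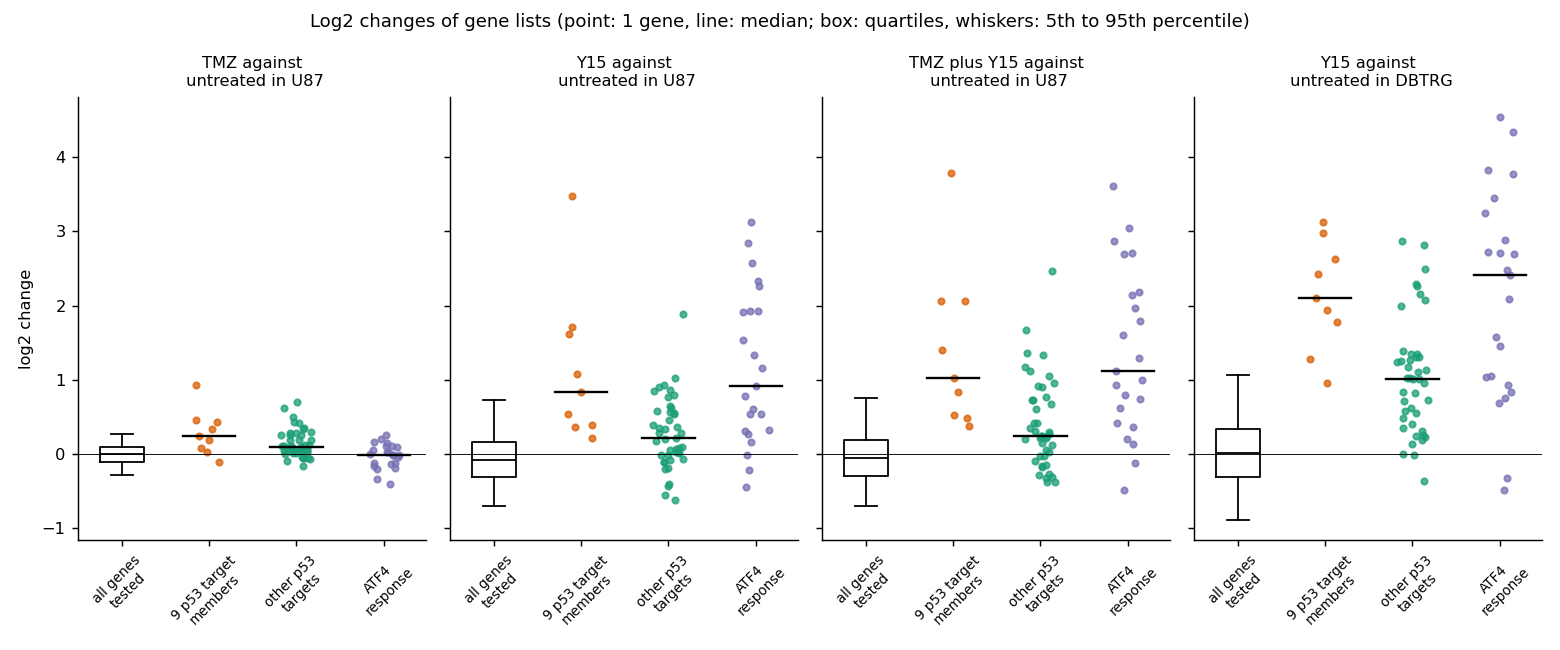
Log2 changes under 4 treatments (1 panel each) for all genes tested (box: quartiles, whiskers: 5th to 95th percentile), the 9 members, the other p53 targets and the ATF4 response genes; points are genes and lines are medians. With TMZ alone the list medians are 0.25, 0.10 and -0.01, and with Y15 in DBTRG they are 2.11, 1.01 and 2.41.

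The 5 genes whose levels followed CDKN1A most closely over the 12 arrays were MTMR11 (Pearson's r = 0.973), DDB2 (0.966), ZNF337 (0.950), NUP42 (0.948) and SLC25A25 (0.946). Those of MDM2 were SNORD48 (0.985), TPRG1L (0.981), BTG1 (0.977), ZRSR2 (0.972) and FBXW7 (0.971). These values describe 12 arrays that form only 6 groups.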

How the data were processed

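Per the file headers, the deposited intensity of each probe is linear and comes with a detection p-value. The submitters' processing notes name GenomeStudio without a version. The authors' other table has log2 values that keep the order of probes within every array, with column medians of 6.82. How it was normalized is not stated, and it served as an alternative.

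From the intensities, background was corrected with limma 3.58.1 in R 4.3.3 (normexp through the detection p-values, offset 16), followed by quantile normalization and log2. Probes with a detection p under 0.01 in at least 2 arrays were kept (19354). The annotation gave 30113 probes 1 symbol and 8 several, and did not list 17202. Of several kept probes (3061 genes), the brightest on average stood for the gene. Group means were fitted to the 12 arrays with lmFit and eBayes (6 residual degrees of freedom, prior 4.35), with Benjamini-Hochberg adjustment over 11423 genes. The fit was checked on simulated data.

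The members and lists were chosen with earlier results of these data known. Named genes were the members, the 5 most correlated with CDKN1A and with MDM2, and, in the other lists, those called in a U87 comparison with TMZ and the 5 with the smallest p for Y15 in each line; examples of these are printed. Alternatives changed background, scaling, filter, probes, arrays or weights, or added a replicate block. No slide, scan or hybridization batch is given in the sources used here.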

Additional observations from a re-analysis of the deposited data

Results flagged for a closer look

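For 6 members the test of the difference between the Y15 changes of the 2 lines passed the threshold, with a larger rise in DBTRG: MDM2 (2.09, limma adjusted p = 0.00200), SESN1 (1.56, 0.000329), GADD45A (1.42, 0.000691), TP53I3 (1.41, 0.0118), TP53INP1 (1.27, 0.0118) and AEN (0.741, 0.0140). Each group has 2 arrays, and DBTRG was not treated with TMZ, so the same comparison cannot be made for TMZ. On the second probes, the difference held for GADD45A (1.13, adjusted p = 0.00404) and was not called for TP53INP1 (0.80) or AEN (0.64).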

How the results depend on the processing

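Over 81 member values, 9 genes in 9 comparisons, 59 stayed on their side of the threshold in all alternatives, and of 1341 values 41 lost a call, 19 gained one and 4 changed sign with a call on either side. Values called on neither side changed sign in 12 cases with centring on the median of all probes and in 0 to 4 under each other setting. With TMZ alone the number of members called fell from 1 to 0 under median centring, the replicate block, centring on the median of all probes, the 8 U87 arrays only, the arrays compared only and every kept probe tested, and was 0 without any 1 of the 4 arrays compared. In the interaction it was 1 in place of 0 with an offset of 50, no background correction, the authors' log2 table, detection in at least 6 arrays and array weights. Centring on the median of all probes was chosen after seeing the data. It gave 6 members called in place of 0 when TMZ was added to Y15, and 3 in place of 5 between the untreated lines. It turned SESN1 (-0.204) and AEN (-0.457) with Y15 in U87, and GADD45A (-0.415) and AEN (-0.0438) between the untreated lines; the cause was not tested.

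Differences between replicates 1 and 2 correlated at -0.055 to 0.110 between the groups compared. The labels do not say whether arrays of the same replicate number were handled together, and low correlations cannot settle it. The replicate block ended the calls of CDKN1A with TMZ (0.93, limma adjusted p = 0.207) and of TP53INP1 between the untreated lines (0.67, 0.0541) and changed no other call among the members.

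Counts over all genes ranged over the alternatives from 0 to 1 with TMZ (1 as reported), 1119 to 3712 with both agents (2629), 0 to 3718 for TMZ added to Y15 (34), 1268 to 3895 for Y15 added to TMZ (2898), 0 to 58 in the interaction (0), 1154 to 7400 with Y15 in U87 (2507), 2570 to 6287 in DBTRG (4313) and 1475 to 6182 for the difference between lines (2272). The other p53 targets called higher with Y15 in U87 ranged from 1 to 17 (15), and those called lower from 1 to 14 (1), with 1 and 14 under centring on the median of all probes and 5 to 9 called higher with 1 array left out. ATF4 response genes called higher there ranged from 11 to 18 (16). Signal over background limits the dim probes, among them MDM2 in U87 and the second CDKN1A probe.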
